A study of Mus musculus with 32 samples.

Results

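Stretches of the mouse genome in which peaks of the glucocorticoid receptor (GR) crowd together in liver are described here. The autosomes were cut into windows of 100 kb counted from position 0 of each chromosome, and a window was called GR-dense when it held the centres of 5 or more GR peaks. There were 512 such windows among 24722 autosomal windows, of which 5328 held any GR peak and 2652 held exactly 1. The GR-dense windows held 3257 of the 11564 autosomal GR peaks (28.2%). The windows were chosen by the positions in the GR list alone, so their number, their GR counts and the spacing of their GR peaks are a description. Windows with 1 GR peak are the comparison used throughout and are called single-GR windows.

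Livers came from male C57BL/6 mice, 8 weeks old, whose adrenal glands had been removed. All animals were thus short of their own glucocorticoid. One group received dexamethasone, a synthetic GR ligand, at 1 mg/kg as a cyclodextrin complex in 300 ul saline, and the other cyclodextrin alone (vehicle). Tissue was taken after 1 h. DNase-seq, GR ChIP-seq and C/EBPβ ChIP-seq each had 2 samples per treatment, but the deposited files give 1 list of intervals per assay and condition, and 1 GR list with no treatment in its name. The lists hold positions in the mm9 build and no counts or heights. Read depth is therefore unknown, no difference between the conditions has a replicate check, and no test was made. Whole liver was used, so a site open in more cells and a site more open in each cell cannot be told apart.

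GR is a nuclear receptor that enters the nucleus and binds DNA once it has ligand. Its sites in liver lie mostly in chromatin that is already open, and regulated genes often have several sites spread over their neighbourhood rather than 1 at the promoter. C/EBPβ is a leucine zipper factor of hepatocytes that is active in metabolic and acute-phase gene control. DNase I hypersensitive sites (DHS) mark DNA that is accessible to such factors. DHS found in the dexamethasone list that share no base with a vehicle DHS are called dex-only below, and vehicle-only DHS are the reverse. Genes are not named for the windows, since no gene table of the mm9 build was used here, and for the same reason no sequence is shown.

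Window counts fell steadily with the number of GR peaks, with no gap at the threshold. There were 1190 windows with 2 GR peaks, 621 with 3, 353 with 4, 216 with 5, 124 with 6 and 77 with 7. A further 64 windows had 8 or 9, and 31 had 10 or more, up to 17. The median GR-dense window held 6. Windows just outside the threshold, with 4 GR peaks, had a mean of 9.36 dexamethasone DHS and 5.50 dexamethasone C/EBPβ peaks (SD 3.16 and 2.28, n = 353 windows). Windows just inside it, with 5, had 10.9 and 6.73 (SD 3.14 and 2.56, n = 216). The 2 sides of the threshold therefore differed by less than 1 SD between windows in both measures.

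**Figure D1:**
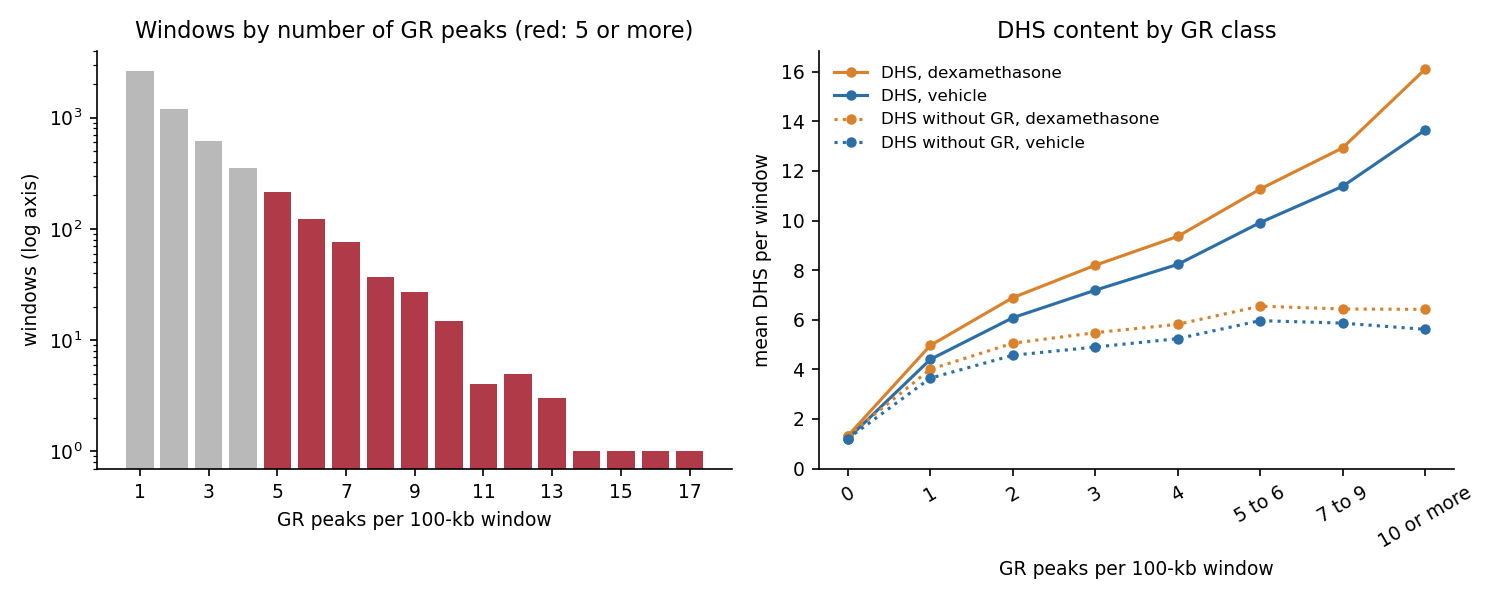
Left, number of 100-kb windows (log axis) by the number of GR peaks they hold, with GR-dense windows in red. Right, mean number of DHS per window against the GR count of the window, for the dexamethasone and vehicle lists, with all DHS (solid) and DHS without a GR peak (dotted). DHS with no GR peak level off at about 6.5 per window in the dexamethasone list while all DHS go on rising to 16.1.

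Every chromosome contributed. Chromosome 8 had most GR-dense windows, 41 of its 1317 (3.11%), and they held 38.0% of its GR peaks. Chromosome 4 followed with 39 windows. Chromosome 7 had the lowest share, with 22 of 1525 windows (1.44%), and on chromosome 11, which had 724 GR peaks, 20.2% of them lay in GR-dense windows. Of windows with any GR peak, 15.2% were GR-dense on chromosome 8 and 6.82% on chromosome 11, the extremes among the 19 autosomes.

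Accessible chromatin was abundant in GR-dense windows of vehicle-treated livers. Each of the 512 windows held a vehicle DHS, from 2 to 22, with a median of 10 (quartiles 8 and 12.2). The dexamethasone list gave 4 to 24 with a median of 12 (quartiles 10 and 14). Single-GR windows had medians of 4 in both lists, and 72 of 2652 had no vehicle DHS. DHS covered a mean of 9296 bp of a GR-dense window in the dexamethasone list and 7586 bp in the vehicle list, against 3237 and 2893 bp of a single-GR window. Part of this is fixed by the choice of windows, because nearly all GR peaks lie in DHS.

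DHS without a GR peak are the part of the content that the choice of windows does not fix directly. GR-dense windows had a median of 6 such DHS in each list, with ranges from 0 to 16, and single-GR windows had 4 (dexamethasone) and 3 (vehicle). From 5 or 6 GR peaks upward their mean number no longer increased: it was 6.55 in windows with 5 to 6 GR peaks, 6.43 with 7 to 9 and 6.42 with 10 or more in the dexamethasone list. What rose instead was the share of DHS with a GR peak in them. That share, which the choice of windows raises by itself, was 19.3% in single-GR windows, 45.8% in GR-dense windows and 60.1% in windows with 10 or more.

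A large number of vehicle DHS went with many GR peaks but was not enough for them. Of the 428 windows with 12 or more vehicle DHS, 180 (42.1%) were GR-dense, 161 had 2 to 4 GR peaks, 53 had 1 and 34 (7.94%) had none. Conversely, 180 of the 512 GR-dense windows (35.2%) had that many vehicle DHS. Among windows with 6 to 7 vehicle DHS, the 66 GR-dense ones had a mean of 4.82 vehicle C/EBPβ peaks, the 421 single-GR ones 2.54 and the 554 without GR 1.81. Among windows with 12 or more vehicle DHS the means were 7.93, 4.75 and 4.18. Many GR and C/EBPβ peaks coincide, which raises the first of each set.

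C/EBPβ was also more frequent in GR-dense windows at DHS that held no GR peak. In GR-dense windows 30.1% of vehicle DHS without GR held a vehicle C/EBPβ peak (95% Wilson interval 28.5 to 31.8, n = 3029), and in single-GR windows 25.6% (24.7 to 26.5, n = 9670). The difference was 4.51 percentage points (95% Newcombe interval 2.68 to 6.38), with the GR-dense share higher on 16 of 19 autosomes. In the dexamethasone lists the shares were 32.3% (n = 3333) and 26.0% (n = 10617), a difference of 6.32 points (4.54 to 8.12) with the same sign on 19 of 19 autosomes. Windows without GR had 22.5% and 21.4% in the 2 conditions, and windows with 4 GR peaks 30.02% and 31.0%, close to GR-dense windows. At equal numbers of vehicle DHS the GR-dense share was above that of single-GR windows and of windows without GR in each of 4 ranges. The Wilson intervals of GR-dense and single-GR windows overlapped in each range, though only barely with 8 to 9 vehicle DHS. They were 24.5 to 37.4 and 25.8 to 29.4 with 6 to 7 vehicle DHS. With 10 to 11 they were 25.5 to 31.9 and 22.7 to 28.2, and with 12 or more 28.6 to 33.2 and 23.8 to 30.7. Single-GR windows were not always above those without GR. Windows with 2 to 4 GR peaks were close to GR-dense ones at the higher numbers. They had 28.3% against 28.6% with 10 to 11 vehicle DHS and 29.6% against 30.9% with 12 or more. With 6 to 7 the shares were 26.4% and 30.6%, and with 8 to 9 they were 27.6% and 30.9%. With 8 to 9 vehicle DHS the vehicle shares were 30.9% (27.0 to 35.2) in GR-dense, 24.9% in single-GR and 26.9% in windows without GR. Intervals on shares cover counting error only and take DHS or peaks as independent, although those of 1 window share their region, so they are too narrow. DHS without GR had nearly the same width in GR-dense and single-GR windows, with vehicle medians of 628 and 613 bp among those matched between the lists.

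GR peaks of GR-dense windows lay in vehicle DHS about as often as other GR peaks, those of single-GR windows apart. In GR-dense windows 2607 of 3257 GR peaks (80.04%, 78.6 to 81.4) overlapped a vehicle DHS, in windows with 10 or more 279 of 355 (78.6%, 74.0 to 82.5), and in single-GR windows 2002 of 2652 (75.5%, 73.8 to 77.1). Windows with 2, 3 and 4 GR peaks had 79.8%, 81.9% and 80.2%, and all autosomal GR peaks together 79.3%. The difference between GR-dense and single-GR windows was 4.55 points (2.42 to 6.69), positive on 15 of 19 autosomes. It was 9.53 points with only DHS above the median width and 2.81 points (0.571 to 5.04) with GR peaks of 1 DHS counted once. Dex-only DHS held 14.4% of GR peaks in GR-dense windows and 19.3% in single-GR windows, a difference of -4.98 points (-6.91 to -3.06), negative on 14 of 19. GR peaks that stood alone were thus found a little more often in newly called DHS. GR peaks in no DHS made up 3.10% and 3.77%, a difference whose interval (-1.63 to 0.259 points) includes 0.

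C/EBPβ at GR peaks also varied little with density, and not in 1 direction. A vehicle C/EBPβ peak overlapped 48.04% of GR peaks in single-GR windows, 51.3% in GR-dense windows and 43.1% (38.0 to 48.3) in windows with 10 or more. Over all autosomal GR peaks it was 50.5%. GR-dense windows exceeded single-GR windows by 3.23 points (0.672 to 5.79), or by 7.55 points with C/EBPβ peaks within 500 bp counted. The interval included 0 under 4 of 14 alternatives, with differences of 2.44 points (threshold of 6 GR peaks), 2.21 (overlap of 50%), 2.19 (centre inside) and 3.33 (every other window). With the dexamethasone list the shares were 58.5%, 63.7% and 58.0%. GR peaks that met C/EBPβ after dexamethasone but not after vehicle made up 10.8% in single-GR windows and 12.8% in GR-dense windows. In windows with 10 or more they made up 15.2% (11.9 to 19.3). Windows with 3 and 4 GR peaks were close to GR-dense ones, with 12.8% and 12.5%. With the dexamethasone list they had 64.9% and 63.5%, and with the vehicle list 52.5% and 51.3%.

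**Figure D2:**
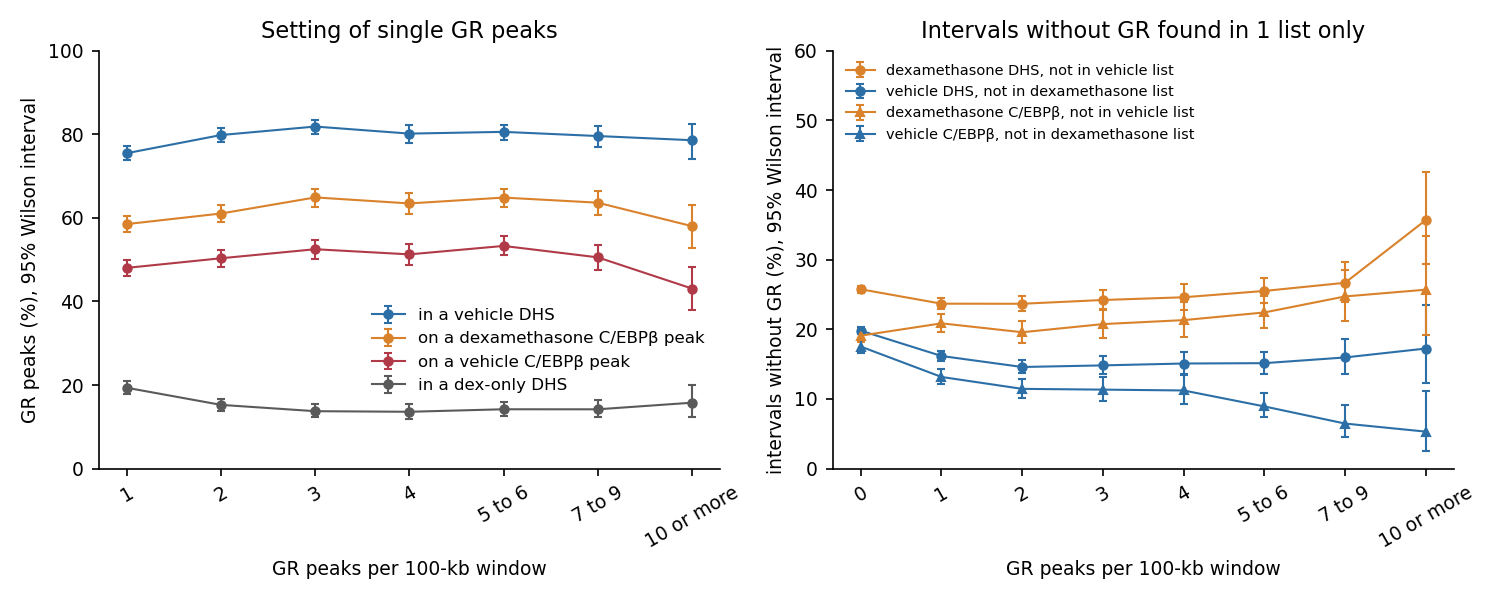
Left, share of GR peaks that overlap a vehicle DHS, a dex-only DHS or a C/EBPβ peak of either list, by the number of GR peaks in the window. Right, share of DHS (circles) and C/EBPβ peaks (triangles) without GR that were found in 1 list only. Bars are 95% Wilson intervals. The left lines stay within about 10 points from 1 to 10 or more GR peaks. On the right the vehicle C/EBPβ line falls from 17.5% without GR to 5.31%.

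Within the GR-dense windows the setting of GR peaks was mixed. All GR peaks lay in vehicle DHS in 155 windows (30.3%), and at least 50% of them did in 478. In 292 windows (57.0%) 1 or more GR peaks lay in a dex-only DHS, but no window had all its GR peaks there. All 512 windows held at least 1 vehicle C/EBPβ peak, against 80.3% of single-GR windows. It did not always meet a GR peak: in 12 windows no GR peak overlapped a vehicle C/EBPβ peak, and in 26 every GR peak did. Of the 353 windows with 4 GR peaks, 4 held no vehicle C/EBPβ peak. More GR peaks give a window more chances to hold a vehicle C/EBPβ peak or a GR peak in a dex-only DHS. They also make it less likely that all lie in 1 setting. These window counts thus follow in part from the choice of windows.

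Between the conditions, the number of DHS differed in GR-dense windows about as it did elsewhere. The number of C/EBPβ peaks and the total length covered by DHS differed more than in single-GR windows. GR-dense windows held 6155 DHS in the dexamethasone list and 5399 in the vehicle list, a ratio of 1.14. The ratio was 1.13 in single-GR windows and 1.12 over all autosomal windows, since the dexamethasone list is longer. Dense windows had the higher ratio on 11 of 19 autosomes. For DHS without GR the ratio was 1.10 in both classes. C/EBPβ peaks numbered 4010 and 3282 in GR-dense windows, a ratio of 1.22 (1.10 to 1.37 on single chromosomes), against 1.13 in single-GR windows (1.03 to 1.22), with the GR-dense ratio higher on 17 of 19 autosomes. For C/EBPβ peaks that met no GR peak the ratios were 1.20 and 1.10, with the former higher on 18 of 19.

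The ratios followed the GR count of the window. The C/EBPβ ratio was 1.02 in windows without GR, 1.20 with 5 to 6 GR peaks, 1.25 with 7 to 9 and 1.32 with 10 or more. Windows with 3 and 4 GR peaks had 1.17 and 1.18, and those with 5 had 1.18, so there was no step at the threshold. The length covered by DHS behaved alike. In GR-dense windows it came to 4759805 bp after dexamethasone and 3883925 bp after vehicle, a ratio of 1.23, against 1.12 in single-GR windows, and the GR-dense ratio was higher on 19 of 19 autosomes. The covered-length ratio was 1.16, 1.17 and 1.20 in windows with 3, 4 and 5 GR peaks, and 1.33 in those with 10 or more. Covered length includes DHS that hold a GR peak, whose share the choice of windows raises, and it was not computed without them. The rise of its ratio with the GR count is therefore not separate from that choice. The ratios carry no counting interval.

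**Figure D3:**
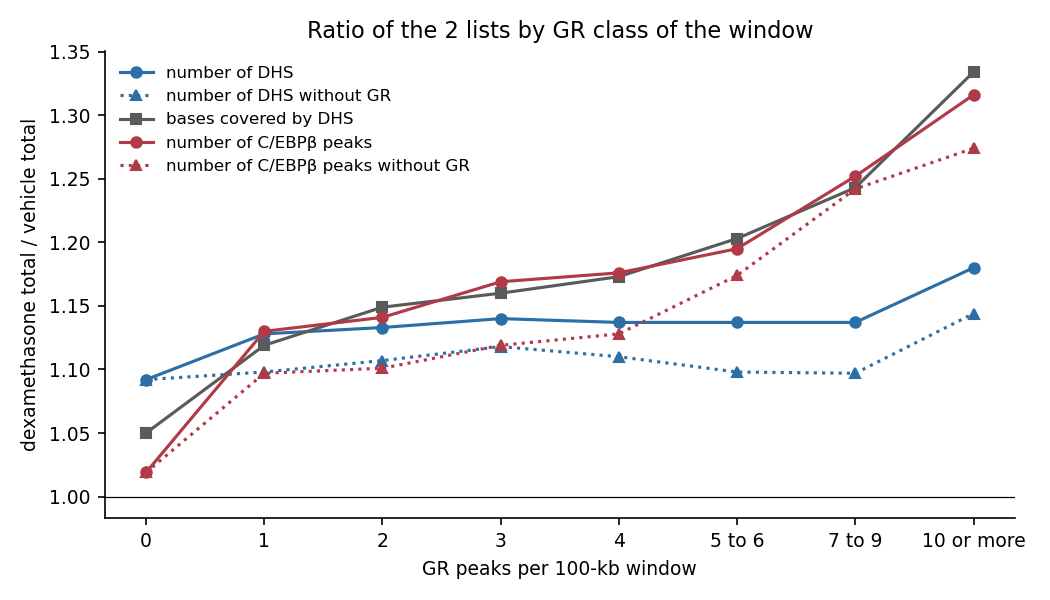
Dexamethasone total divided by vehicle total, by the number of GR peaks in the window, for DHS numbers, bases covered by DHS and C/EBPβ peak numbers. Dotted lines leave out intervals that meet a GR peak, and bases covered are shown for all DHS only. The number of DHS stays near 1.14 from 2 to 9 GR peaks, while covered bases and C/EBPβ numbers reach 1.33 and 1.32.

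Counted window by window, 329 of the 512 GR-dense windows (64.3%) had more DHS after dexamethasone than after vehicle and 95 (18.6%) had fewer. Over all 15206 windows with a DHS in either list, 43.2% had more and 23.2% fewer. More C/EBPβ peaks after dexamethasone were found in 349 GR-dense windows (68.2%) and fewer in 46 (8.98%), against 32.3% and 15.8% of the 9732 windows with a C/EBPβ peak in either list. Windows with few intervals are often tied between the lists, which lowers the shares over all windows. Among windows with 4 GR peaks 64.0% had more DHS and 55.3% more C/EBPβ peaks.

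C/EBPβ peaks without GR were less often found in the vehicle list alone in GR-dense windows. Of vehicle C/EBPβ peaks that met no GR peak, 129 of 1610 (8.01%, 6.78 to 9.44) were absent from the dexamethasone list in GR-dense windows, 464 of 3525 (13.2%, 12.1 to 14.3) in single-GR windows and 17.5% in windows without GR. GR-dense windows were lower by 5.15 points than single-GR windows (difference -6.84 to -3.36), on 16 of 19 autosomes. Windows with 2, 3 and 4 GR peaks lay between, with 11.45%, 11.34% and 11.22%, and those with 5 had 9.39%. Under 2 kb from a GR peak, GR-dense and single-GR windows had 7.28% (5.45 to 9.66) and 8.87% (6.51 to 11.99), with overlapping intervals. That close lay 591 of the 1610 peaks in GR-dense windows and 417 of the 3525 in single-GR windows. Beyond 20 kb the shares were 5.52% and 13.3%, and the GR-dense share was the lower one in each range between. The reverse differed less: 23.3% of dexamethasone C/EBPβ peaks without GR were absent from the vehicle list in GR-dense windows and 20.9% in single-GR windows (difference 2.44 points, 0.189 to 4.75). That interval included 0 under 4 of 14 alternatives: 2.06 points on the shifted grid, 1.74 with a threshold of 4 GR peaks, 2.15 without chromosome 8 and 2.18 with every other window. Vehicle DHS without GR were absent from the dexamethasone list in 15.5% and 16.2% of cases, with an interval of the difference (-2.14 to 0.824 points) that includes 0.

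Newly called DHS without GR were slightly more frequent in GR-dense than in single-GR windows, but not than in windows without GR. Of dexamethasone DHS without GR, 881 of 3333 (26.4%, 24.96 to 27.96) were absent from the vehicle list in GR-dense windows and 23.7% (22.9 to 24.5) in single-GR windows. The share was 25.8% (25.2 to 26.3) in windows without GR and 24.97% over all autosomal windows, both within the interval of the GR-dense share. The difference between GR-dense and single-GR windows was 2.75 points (1.07 to 4.47), positive on 14 of 19 autosomes. It was 0.751 points (-1.66 to 3.25) when only every other window of the grid was used and 1.00 point (-0.613 to 2.67) when DHS within 500 bp counted as shared. In windows with 10 or more GR peaks the share was 35.7% (29.4 to 42.5, n = 199).

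In GR-dense windows the share was highest close to GR peaks. Of dexamethasone DHS without GR there, 32.5% (29.4 to 35.7, n = 843) were dex-only when their centre lay under 2 kb from a GR centre, 28.9% at 2 to 5 kb, 23.8% at 5 to 10 kb, 19.4% (16.3 to 23.0, n = 530) at 10 to 20 kb and 21.8% (17.9 to 26.2, n = 381) beyond. Single-GR windows showed 28.4%, 24.6%, 22.7%, 24.3% (22.5 to 26.3) and 22.6% in the same ranges, with no steady order beyond 5 kb. Up to 10 kb the GR-dense share was the higher one and beyond 10 kb the lower one, with Wilson intervals of the 2 classes that overlapped in each range. Of vehicle DHS without GR, 10.8% were vehicle-only under 2 kb and 19.4% beyond 20 kb in GR-dense windows, and 10.7% and 17.5% in single-GR windows, so they were least frequent near GR peaks in both classes.

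DHS width followed the same pattern. Among DHS matched one to one between the lists, those holding a GR peak gained width in the dexamethasone list, with a median log2 ratio (dexamethasone over vehicle) of 0.15 in GR-dense windows (0.14 to 0.16, n = 2164) and 0.11 in single-GR windows (0.09 to 0.12, n = 1895). The interval is the exact binomial one for a median. Wider DHS made up 76.8% and 67.0%, and 82.9% (77.5 to 87.2) in windows with 10 or more GR peaks. DHS without GR in GR-dense windows had a median of 0.00 (-0.01 to 0.01, n = 2255), with 57.6% wider under 2 kb from a GR peak and 41.6% beyond 20 kb. In single-GR windows 50.6% and 44.5% were wider at those distances.

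**Figure D4:**
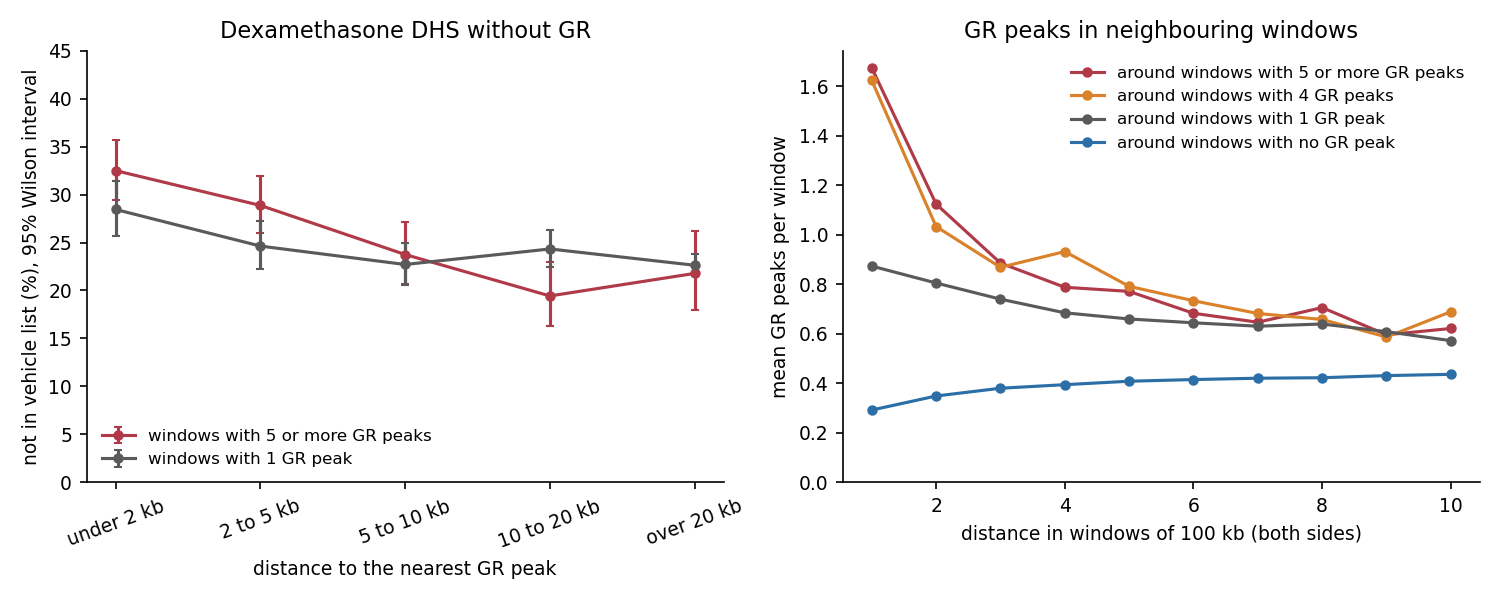
Left, share of dexamethasone DHS without GR that were absent from the vehicle list, by distance to the nearest GR peak, with 95% Wilson intervals. Right, mean number of GR peaks per window at 1 to 10 windows from windows of each class. The share falls from 32.5% to 19.4% over the first 20 kb in GR-dense windows and is 21.8% beyond, and the mean around them falls from 1.67 in the next window to 0.62 at the tenth.

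Most GR-dense windows stood alone on the grid. Of the 512, 95 (18.6%, 15.4 to 22.2) had another GR-dense window directly beside them, against 206 of 2652 single-GR windows (7.77%, 6.81 to 8.85) and 69 of 353 windows with 4 GR peaks (19.5%). The 512 windows formed 461 runs: 417 single windows, 38 pairs, 5 runs of 3 and 1 run of 4. In 91 windows (17.8%) neither neighbour held a GR peak, which was so for 41.0% of single-GR windows. The share beside another was 23.0% with the grid shifted by 50 kb, 30.1% with a threshold of 4 GR peaks and 10.8% with 6.

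GR peaks became sparser over the neighbouring windows. The window next to a GR-dense window had a mean of 1.67 GR peaks, the second 1.12, the third 0.89 and the tenth 0.62. Around single-GR windows the means were 0.87, 0.80, 0.74 and 0.57, and around windows without GR 0.29 in the next window. Vehicle DHS in the next window averaged 4.96 beside GR-dense and 3.83 beside single-GR windows. Neighbours of windows with 4 GR peaks (1.62 GR peaks and 5.19 vehicle DHS) were close to those of GR-dense windows.

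The run of 4 windows and 2 of the 5 runs of 3, those with most GR peaks, lay on chromosome 8. The other 3 runs of 3 lay on chromosomes 18, 12 and 16 and held 20, 17 and 17 GR peaks. The run of 4 windows, chr8:73000001-73400000, had 6, 5, 5 and 5 GR peaks, with 55 DHS and 30 C/EBPβ peaks after dexamethasone against 40 and 16 after vehicle. Both counts were higher after dexamethasone in each of its 4 windows. Of its 21 GR peaks 7 lay in dex-only DHS and 12 in vehicle DHS. The run chr8:129100001-129400000 had 9, 9 and 6 GR peaks, 37 DHS in each list, and 40 and 34 C/EBPβ peaks, with 21 of 24 GR peaks in vehicle DHS. The run chr8:10800001-11100000 had 10, 6 and 5 GR peaks, 36 and 31 DHS, 29 and 26 C/EBPβ peaks, and 18 of 21 GR peaks in vehicle DHS. The first run thus differed from the other two in the share of GR peaks outside vehicle DHS.

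Inside GR-dense windows GR peaks were spaced unevenly. The distance between consecutive GR centres of a window had a median of 5026 bp (4652 to 5452, n = 2745 distances) and ranged from 160 to 89409 bp. It was under 1 kb in 14.9% of cases and over 20 kb in 14.6%. The GR peaks of a window spanned a median of 53078 bp (quartiles 35483 and 71270). In 49 windows (9.57%) they lay within 20 kb, and in 72 they spread over more than 80 kb. In 297 windows (58.0%) the closest 2 GR peaks were under 1 kb apart. Consecutive vehicle DHS in the same windows were a median of 3926 bp apart and vehicle C/EBPβ peaks 5565 bp, against 6370 and 10824 bp in single-GR windows.

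The nearest other GR peak lay a median of 2598 bp away (2454 to 2834) in GR-dense windows, 1905 bp in windows with 10 or more and 121524 bp in single-GR windows. These values follow from the GR counts that chose the windows. Of 2822 dexamethasone DHS with GR in GR-dense windows, 306 (10.8%, 9.75 to 12.04) held 2 or 3 GR peaks. That share counts DHS, so it does not show how much of the close spacing lay within shared DHS. With GR peaks in the same dexamethasone DHS counted once, the median distance between consecutive GR centres was 6475 bp (6037 to 6930) rather than 5026 bp. Counting them once also left 416 rather than 512 windows GR-dense. The GR peaks of a GR-dense window lay in a median of 5 separate DHS (range 2 to 15).

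Spacing and setting went together weakly. GR peaks of GR-dense windows with another under 1 kb away lay in vehicle DHS in 84.0% of cases (81.3 to 86.4, n = 787) and in dex-only DHS in 9.66%. Those more than 20 kb from any other lay in vehicle DHS in 68.9% (61.8 to 75.1, n = 183), in dex-only DHS in 19.7% and in no DHS in 9.29%. In windows with 2 to 4 GR peaks the vehicle DHS shares were 88.1% under 1 kb and 76.1% beyond 20 kb. Vehicle C/EBPβ did not follow this order, with 47.9% under 1 kb, 53.9% at 5 to 20 kb and 45.4% beyond 20 kb. GR peaks under 1 kb apart can lie in the same DHS and then share its setting. They are thus not independent, and the interval for them is too narrow. The shares by distance were not recomputed with GR peaks of 1 DHS counted once.

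The 10 windows with most GR peaks show how varied the clusters were. The densest, chr2:167600001-167700000, had 17 GR peaks, 16 of them in vehicle DHS and none in a dex-only DHS. It held 20 DHS after dexamethasone and 22 after vehicle, but 13 C/EBPβ peaks after dexamethasone and 5 after vehicle, so C/EBPβ peaks were more numerous after dexamethasone while DHS were not. Of its GR peaks 4 met C/EBPβ in the vehicle list and 10 in the dexamethasone list. Their centres lay at 0.97, 3.02 and 7.22 kb from the window start, then, after 41860 bp without GR, at 14 places from 49.08 to 86.24 kb. The window before it held 5 GR peaks.

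The window chr6:90400001-90500000 held 16 GR peaks, 15 of them in 15 separate DHS and 1 in no DHS. The vehicle and dexamethasone lists gave 12 and 19 C/EBPβ peaks, 19 and 24 DHS, and 4 and 9 GR peaks on C/EBPβ. On chromosome 9 the window chr9:46000001-46100000 had 15 GR peaks, 11 in vehicle DHS, with 8 on C/EBPβ in either list and 12 and 13 C/EBPβ peaks in vehicle and dexamethasone livers. C/EBPβ was thus nearly the same in both lists there. Also on chromosome 9, chr9:48500001-48600000 had 14 GR peaks, of which 10 lay in vehicle DHS and 4 in dex-only DHS, and those on C/EBPβ numbered 5 in the vehicle and 10 in the dexamethasone list.

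There were 3 windows with 13 GR peaks. The window chr2:32200001-32300000 had 12 of them in 7 DHS and 1 in no DHS, with 5 on C/EBPβ in both lists. At chr3:82800001-82900000 and chr7:106300001-106400000 12 of 13 lay in vehicle DHS, and the C/EBPβ peaks numbered 14 and 15 after vehicle and 15 in both after dexamethasone. Neither showed more than 1 C/EBPβ peak of difference. The remaining named windows, chr4:45400001-45500000, chr10:59400001-59500000 and chr12:56500001-56600000, were 3 of the 5 windows with 12 GR peaks, taken in chromosome order. They had 10, 5 and 10 in vehicle DHS and 1, 4 and 2 in dex-only DHS. The chromosome 10 window stood out among the 10 by having fewer than 50% of its GR peaks in vehicle DHS.

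**Figure D5:**
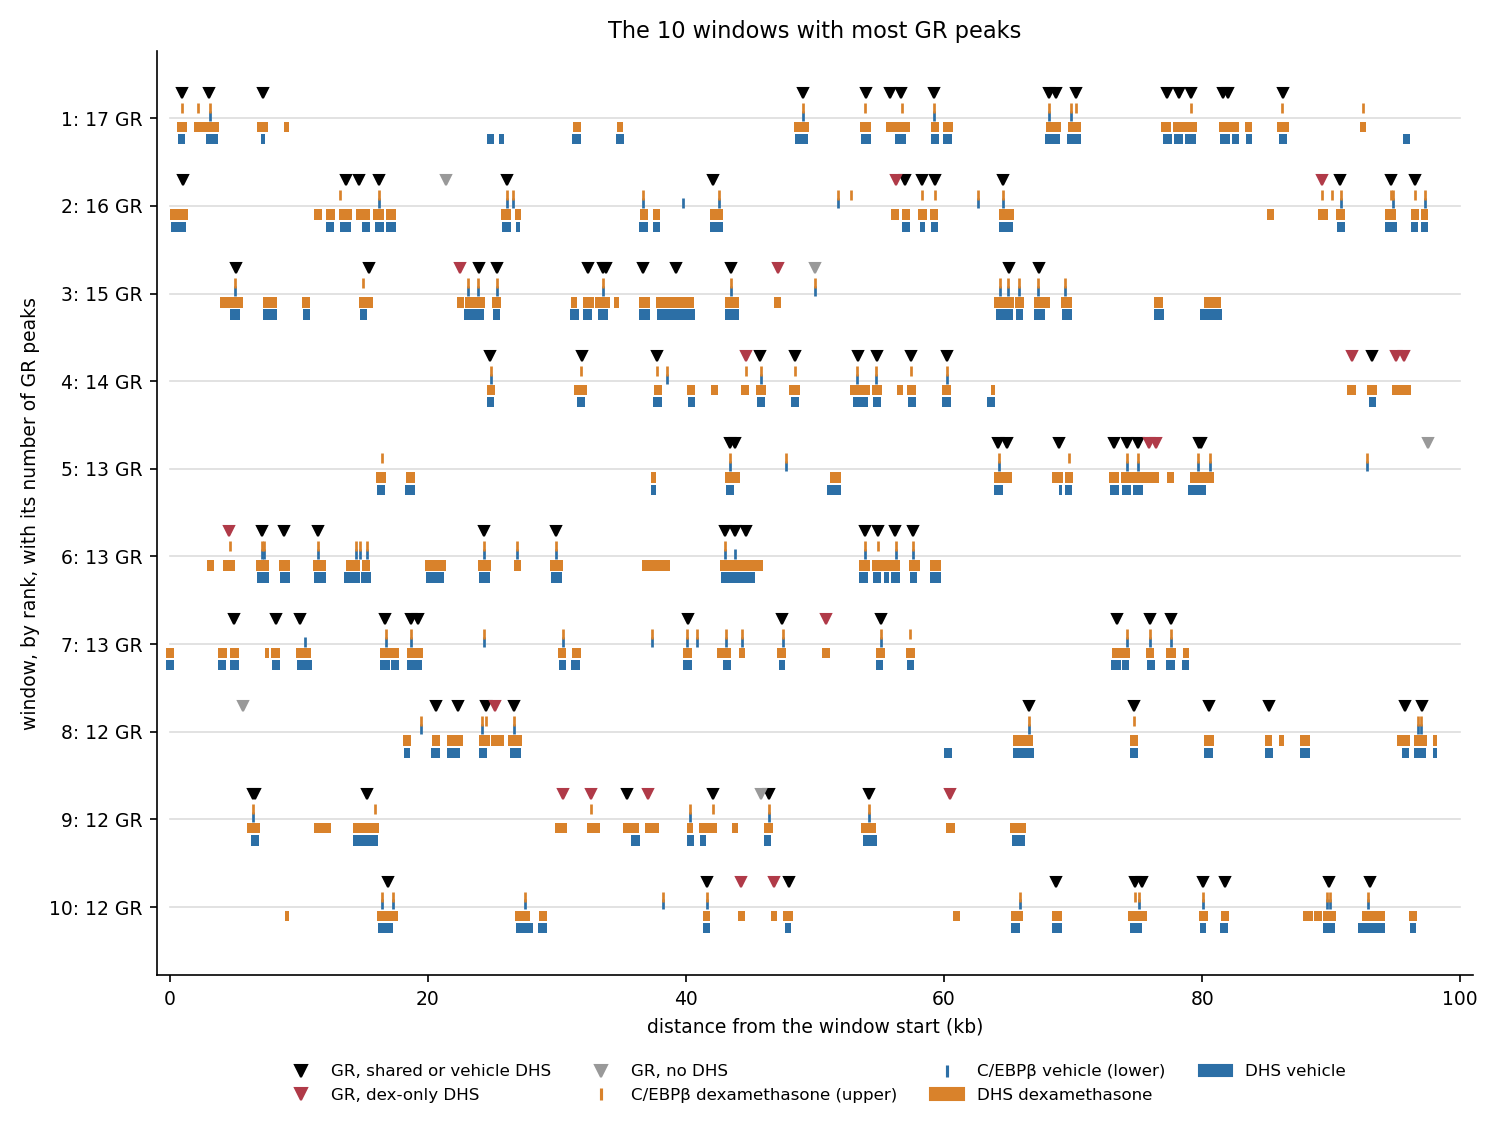
The 10 windows with most GR peaks, drawn by distance from the window start in kb: GR peaks (triangles, red in dex-only DHS and grey in no DHS), C/EBPβ peaks (ticks) and DHS (bars) of the dexamethasone (orange) and vehicle (blue) lists. Most triangles sit over a blue bar. The first window has 13 orange and 5 blue C/EBPβ ticks.

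The excess of dexamethasone over vehicle DHS was largest at chr10:94600001-94700000, with 16 against 6 DHS and 6 of 8 GR peaks in dex-only DHS. At chr5:122700001-122800000 there were 19 and 10 DHS, and GR peaks on C/EBPβ numbered 9 of 11 after dexamethasone and 3 of 11 after vehicle. The window chr17:28600001-28700000 had 13 and 4 DHS, and it was the only one of the 512 in which no GR peak lay in a vehicle DHS. Its 9 GR peaks were split between dex-only DHS (5), the flanks of wider dexamethasone DHS whose vehicle counterpart stopped short of them (3), and sequence outside any DHS (1). It held 1 vehicle C/EBPβ peak, which met no GR peak, and its left neighbour held 10 GR peaks. At chr14:70700001-70800000 there were 21 and 12 DHS with 5 GR peaks. An excess of 8 DHS was found in 4 windows, of which chr10:41900001-42000000 (21 and 13 DHS) had most GR peaks, 11.

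The excess of vehicle over dexamethasone DHS was smaller. It was largest at chr2:77300001-77400000, with 16 against 11 DHS, with all 5 GR peaks in vehicle DHS. An excess of 4 was found in 5 windows, among them chr3:96300001-96400000 (19 and 15), chr1:186600001-186700000 (21 and 17), chr2:167500001-167600000 (13 and 9), which adjoins the densest window, and chr6:91600001-91700000 (16 and 12). At chr3:96300001-96400000 the 6 GR peaks lay within 13364 bp, 3 in no DHS and 3 in vehicle DHS, and none met a C/EBPβ peak of either list although the window held 8 in each.

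C/EBPβ peak numbers differed most, beside the densest window and the one on chromosome 6 above, at chr7:71000001-71100000 (12 after dexamethasone, 4 after vehicle), chr14:26300001-26400000 (15 and 8) and chr14:48100001-48200000 (8 and 1). DHS numbers were 15 in both lists, 20 and 16, and 14 in both. In the last window all 7 GR peaks lay in vehicle DHS, 1 met C/EBPβ in the vehicle list and 6 in the dexamethasone list. The largest excess of vehicle over dexamethasone C/EBPβ was 2 peaks, in 10 windows. The 5 of them with most GR peaks, taken in genome order where tied, were chr6:141500001-141600000, chr15:82200001-82300000, chr18:46700001-46800000, chr6:71100001-71200000 and chr11:43700001-43800000, each with 0 C/EBPβ peaks that were in the dexamethasone list alone.

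Windows whose GR peaks lay mostly in dex-only DHS were few: 21 of 512 had 50% or more there. Chosen after their values were seen, the highest shares were 4 of 5 at chr8:73300001-73400000, the last window of the run of 4, and 6 of 8 at chr10:94600001-94700000. A share of 0.6 was found in 12 windows. In 3 of these, each with 3 of 5 GR peaks in dex-only DHS, the number of DHS after dexamethasone and vehicle varied. It was 11 and 7 at chr1:132700001-132800000, 10 and 2 at chr1:140400001-140500000, and 9 and 5 at chr2:31500001-31600000.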

How the data were processed

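The deposited files are 5 lists of intervals in the mm9 build, holding only positions that the authors called in DNase-seq, GR and C/EBPβ ChIP-seq. The submitters' processing notes name CASAVA 1.8 and mm9. The sources used here do not state the peak caller, its threshold or any pooling of replicates. There were 63473 dexamethasone DHS (3 duplicate rows dropped), 56794 vehicle DHS, 25392 and 22714 C/EBPβ peaks and 11666 GR peaks. Adenovirus, polymerase II and input samples were not analysed here.

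An interval belonged to the window that holds its centre, and intervals counted as shared when they overlapped by 1 bp or more. Windows are printed counting from 1. Neighbouring DHS overlap each other at 887 places of the dexamethasone list and 665 of the vehicle list. Shares have 95% Wilson intervals, differences of shares 95% Newcombe intervals and medians exact binomial intervals. No p-value was computed, since regions are not replicates. The windows, comparisons and lists were chosen with earlier results of these data known. Windows named singly were the 10 with most GR peaks, the 3 longest runs (ties by GR peaks), and the 5 with the largest excess of either list in DHS and in C/EBPβ (ties by GR peaks, then genome order), so other windows tie with the last named. Scripts were tested on simulated lists and against bedtools, with Python 3.11.15, numpy 2.4.6, scipy 1.17.1 and pandas 2.3.3.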

Additional observations from a re-analysis of the deposited data

How the results depend on the processing

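Of 209 values recomputed under 14 alternatives (5 of them added after seeing the data, as were 4 of the 15 results), 190 stayed within the interval of the reported value, or within 1.5 times it for counts and ratios, and none whose interval excludes 0 changed sign. Many of the 190 could not move. Rules on overlap, DHS width or merging cannot alter the number of GR-dense windows, their share of GR peaks or their adjacency. Nor can they alter the distance between GR peaks or the C/EBPβ ratio. Rules on DHS width or merging also leave the differences that rest on GR and C/EBPβ peaks alone as they were. The median log2 width ratio of DHS without GR, whose interval includes 0, was -0.0062 with a threshold of 4 GR peaks and -0.0013 within 500 bp. The number of GR-dense windows was 865 with a threshold of 4 GR peaks, 296 with 6, and 234 with every other window, where a smaller number is built in. Their share of GR peaks was 40.4%, 18.8% and 26.5% in the same order, and 23.5% with GR peaks of 1 DHS counted once. With only DHS above the median width, the difference in the vehicle DHS share of GR peaks was 9.53 points, that in the C/EBPβ share of DHS without GR 4.54 points, and the median number of DHS without GR 3, the last because fewer DHS were counted. Within 500 bp, the difference in the vehicle C/EBPβ share was 7.55 points. The difference in the dex-only share of DHS without GR was 1.00 point within 500 bp and 0.751 points with every other window. The share of windows beside another was 23.0% on the shifted grid, 30.1% with a threshold of 4, 10.8% with 6, and 14.7% with GR peaks of 1 DHS counted once. The median distance between GR peaks was 5604 bp with a threshold of 4 and 6475 bp with GR peaks of 1 DHS counted once. Adjacency could not be computed with every other window. Intervals of the vehicle C/EBPβ difference and of the difference in dexamethasone-only C/EBPβ peaks without GR each included 0 under 4 of 14 alternatives, and that of dex-only DHS without GR under 2. Except where stated, the cause was not tested. No paired analysis was possible because the lists carry no replicate columns. Chromosome X held 1 further window with 5 or more GR peaks.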
